A study of Mus musculus with 12 samples.

Results

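Regulatory T (Treg) cells made in culture under high TGF-beta conditions were compared with the naive CD4+ T cells that such cultures start from. The comparison was chosen by label and used 8 of the 12 arrays of the series, the 4 titled TGFhi and the 4 titled Naive. All cells came from Foxp3GFP mice, whose GFP marks cells that express *Foxp3*. Naive CD4+ cells had been purified by fluorescence-activated sorting (FACS, 2 arrays) or on magnetic columns (MACS, 2 arrays). TGFhi Treg cells were grown from FACS-purified (2 arrays) or MACS-purified (2 arrays) naive cells on plates coated with anti-CD3 and anti-CD28, with high TGF-beta and medium containing IL-2, and their GFP+ cells were sorted by FACS on day 4. The other 4 arrays held Treg cells made with low TGF-beta plus harmine, an alkaloid and inhibitor of DYRK kinases, and served to estimate the spread and for 1 comparison at the end. No array held cells stimulated without TGF-beta, so the effects of TGF-beta, receptor stimulation, IL-2, time in culture and the GFP sort cannot be told apart. Neither the labels nor the study's methods tell if the replicates were separate animals or cultures. The p-values hence speak of variation among these arrays, part of which may be technical.

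Naive T cells circulate in a resting state that depends on interleukin 7, the transcription factors of quiescence and receptors for lymphoid tissue. When the T cell receptor and CD28 are engaged, cells enter the cell cycle, switch towards glycolysis and lipid synthesis and take up the high-affinity receptor for interleukin 2 (IL-2), which signals through the transcription factor STAT5. TGF-beta signals through a pair of receptor kinases to SMAD proteins and, together with IL-2, turns on *Foxp3*, the factor that defines Treg cells.

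Levels are log2 of the quantile-normalised intensity of 1 probe per gene, and differences are TGFhi Treg minus naive, averaged over the FACS and the MACS arrays, with the standard error (SE) of the limma model and n = 4 arrays per group. A probe was above background where it exceeded a ceiling of 6.22 to 6.23, which 29.9% to 30.2% of the probes of an array did. Where the dimmer group was under it on all its arrays, the fold change is given as a bound ("at least"). The correlation across probes was 0.980 to 0.992 between replicates of a group and 0.922 to 0.943 between naive and TGFhi Treg arrays. The donors' sex was not alike in both groups. *Xist*, which is transcribed from the inactive X chromosome of females, was at 8.19, 5.76, 8.47 and 5.84 on the naive arrays (FACS replicates 1 and 2, then MACS replicates 1 and 2, the order used below) and at 10.21, 9.91, 8.98 and 9.69 on the TGFhi Treg arrays. The Y-linked *Eif2s3y* was at 5.96, 8.07, 6.07 and 8.08 and at 5.67, 6.44, 6.06 and 6.97, above background on replicate 2 and not on replicate 1 in each of these 4 sets. In the naive sets *Xist* was above background on replicate 1 alone, so the naive replicates differed in the sex of their donors. *Xist* was above background on all TGFhi Treg arrays, so replicate 2 of the TGFhi sets held both signals. Among the arrays without *Eif2s3y* signal, 2 of each kind of cell, 2593 genes were called, of which 2465 were also called over all arrays, 0 of them with the opposite sign.

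The naive arrays also differed in the transcripts of other blood cells. The summed signal above background of the B cell markers was 3117 and 2565 on the naive FACS arrays, 21534 and 16417 on the naive MACS arrays and 714 to 1191 on the TGFhi Treg arrays. For markers of neutrophils and monocytes it was 2243 and 5601, 16193 and 34580, and 22.7 to 48.9, and for CD8 T and NK cells 2520 and 3232, 5265 and 5200, and 1825 to 2134. Erythroid and platelet markers gave 4024 and 656, 8604 and 6760, and 0. The markers of CD4 T cell identity were high in all cells, with 24966 to 34873 in naive and 21468 to 25318 in TGFhi Treg cells. Each result below was therefore also computed for the 4 TGFhi Treg arrays against the 2 naive FACS arrays alone. In RNA from many cells, fewer cells of a type and less RNA per cell cannot be told apart.

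**Figure D1:**
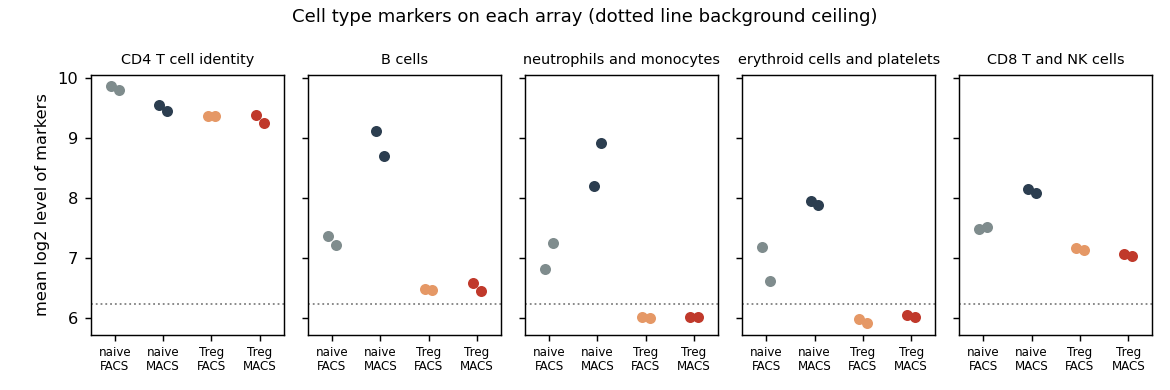
Mean log2 level of the markers of 5 cell types (panels) on each naive and TGFhi Treg array, with 1 point per array and the background ceiling as a dotted line. B cell, neutrophil and monocyte, and erythroid markers were highest on the naive MACS arrays (8.69 to 9.11 for B cells), lower on the naive FACS arrays (7.21 and 7.36) and lowest on the TGFhi Treg arrays (6.45 to 6.57), while the CD4 T cell markers lay between 9.26 and 9.86 on every array.

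The comparison asked how far induction under high TGF-beta moved the cells from their naive state. In limma, 4077 of 15663 genes were called at an adjusted p under 0.05, which is 26% of those tested, with 2012 higher (12.8%) and 2065 lower (13.2%) in TGFhi Treg cells. Of the 9843 genes above background on at least 1 of the 8 arrays, 4038 were called (41%), 1987 higher (20.2%) and 2051 lower (20.8%). In most gene lists below, most measured members were above background, and these latter shares are the closer ones for them. The median absolute log2 difference of the called genes was 0.62, and 561 rose and 419 fell by more than 2-fold. The naive cells were under background for 278 of the genes that rose, and the TGFhi Treg cells for 339 of those that fell.

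Against the naive FACS arrays alone, 1554 of the 2012 higher genes and 1482 of the 2065 lower genes were called again, and 2011 and 2055 kept their sign. This check used the same 4 TGFhi Treg arrays and 2 of the same 4 naive arrays, so it is not an independent repeat. Of the 561 genes higher by more than 2-fold, 523 exceeded 2-fold in the FACS arrays of both cells, as did 335 of the 419 lower genes. All 40 genes that rose by more than 8-fold were called in the FACS arrays, and 0 of them were markers of other cells. The 24 genes that fell by more than 8-fold were also all called there, yet 11 of them were markers or hemoglobins of other blood cells, and 14 exceeded 8-fold in the FACS arrays. The FACS arrays alone gave 2596 calls (16.6%). The FACS and MACS differences, which share no array, had a correlation of 0.870 across all genes, and genes are not independent replicates.

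**Figure D2:**
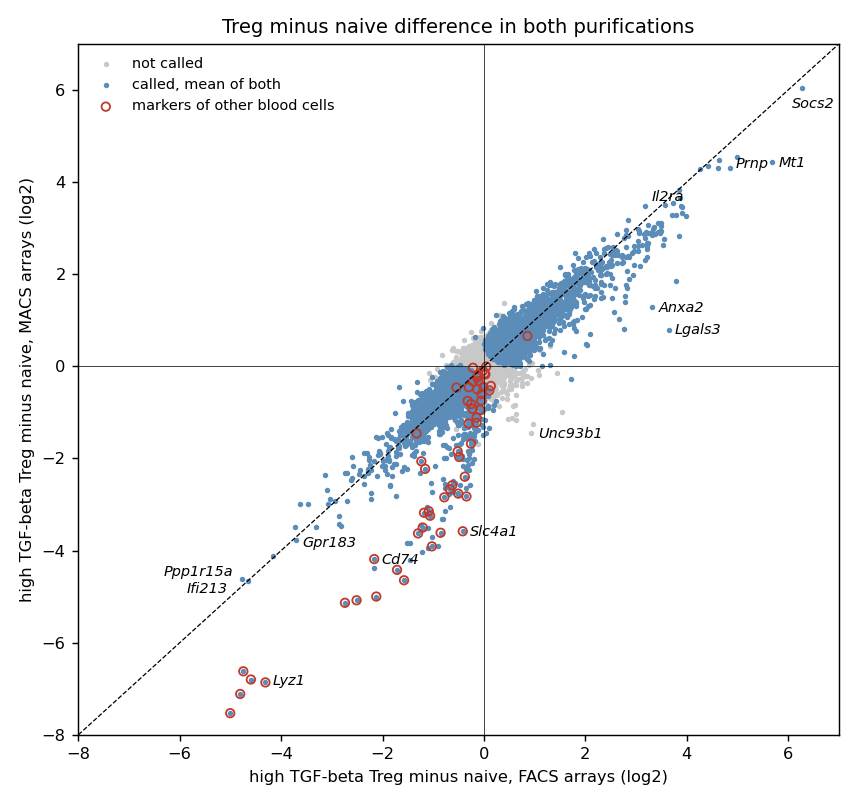
Log2 difference of TGFhi Treg minus naive cells in the FACS arrays (x axis) and in the MACS arrays (y axis), 1 point per gene, with called genes in blue, uncalled genes in grey, markers of other blood cells ringed and the line of equal differences dashed. *Socs2* stands at the upper end with 6.28 and 6.05, *Ppp1r15a* lies on the line with -4.66 and -4.66, and the ringed markers lie below the line, as *Lyz1* with -4.31 and -6.86.

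The IL-2 and STAT5 response held the largest increase of the comparison. *Socs2*, a feedback inhibitor of cytokine signalling, was at 6.28, 6.13, 6.55 and 6.55 on the naive arrays and at 12.58, 12.38, 12.13 and 13.07 on the TGFhi Treg arrays. All naive arrays were near or under background and all TGFhi Treg arrays were among the bright signals. The difference was 6.16 ± 0.19 (71.7-fold, limma adjusted p = 3.42e-08), and 6.33 against the naive FACS arrays alone. *Cish*, a related inhibitor that is a direct target of STAT5, was at 8.31, 7.66, 8.38 and 8.01 in naive and at 12.19, 12.32, 12.39 and 12.57 in TGFhi Treg cells. Its groups were far apart (4.28 ± 0.14, 19.4-fold, adjusted p = 4.84e-08). *Il2ra*, the high-affinity chain of the IL-2 receptor, was under background on all naive arrays (5.88 to 6.04) and at 9.04, 9.25, 9.40 and 9.52 in TGFhi Treg cells, at least 8.44-fold higher (adjusted p = 3.08e-07). A second probe of *Il2ra* gave 5.95 to 6.18 and 8.11 to 9.35. *Lta*, the cytokine lymphotoxin alpha, rose by 2.56 ± 0.32, with its highest level of 10.48 on replicate 2 of the MACS arrays. Of the 20 measured genes of the IL-2 and STAT5 list, 19 were above background. Of the 20, 12 rose (60%, against 12.8% of all genes and 20.2% of genes above background), 1 fell and 7 did not pass, with a median of 0.66. Lists can share members, and *Socs2* is the largest increase of both this list and the Treg signature. Against the naive FACS arrays alone these were 11 higher and 1 lower, with a median of 0.67.

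The first bases of the *Cish* gene are shown because both matches to the STAT motif TTCNNNGAA in its promoter window lie next to each other there. The sequence runs from 3 bases before to 27 bases after the start of the transcript at chr9:107296656-107296685 (plus strand, RefSeq on GRCm38.p6), with the motif matches in capitals.
Cish: gttTTCCTGGAAagTTCTTGGAAatctgtc
The motif reads the same on both strands. It was present in 3 of the 19 promoter windows of the IL-2 and STAT5 list (15.8%), each from 250 bases before to 50 bases after the start, in 7.47% of the 15697 windows of genes tested and in 8.3% of all 32851 windows. A match describes letters and not a binding site, and the difference between these shares was not tested.

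Many surface proteins and effectors of Treg cells rose with it, while the probe used for *Foxp3* did not. *Tnfrsf4*, the costimulatory receptor OX40, went from 7.97, 8.02, 8.35 and 8.32 in naive to 11.16, 11.30, 11.30 and 11.53 in TGFhi Treg cells. The replicates lay within 0.4 of each other in both cells (3.16 ± 0.08, 8.91-fold, adjusted p = 1.22e-08). *Nt5e*, the ecto-enzyme CD73 that makes adenosine, was at 7.49 to 7.74 in naive and 10.36 to 10.86 in TGFhi Treg cells (3.06 ± 0.16). *Ctla4*, an inhibitory receptor through which Treg cells limit costimulation, was at 7.02, 7.44, 7.02 and 7.41 in naive and at 10.03, 10.06, 9.44 and 10.16 in TGFhi Treg cells. The groups did not overlap (2.70 ± 0.31, 6.48-fold, adjusted p = 0.000123). The costimulatory receptor *Icos* rose by 1.85 ± 0.11, *Tnfrsf18*, which encodes GITR, by 1.80 ± 0.15, and *Gpr83*, a receptor characteristic of Treg cells, by 1.82 ± 0.15. *Ebi3*, a subunit of the cytokines IL-27 and IL-35, rose by 2.26 ± 0.19.

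By the probe used, *Foxp3* itself was at 7.42, 7.28, 7.09 and 7.11 on the naive arrays and at 7.10, 6.69, 7.06 and 6.62 on the arrays of the GFP-sorted TGFhi Treg cells. The groups overlapped and the difference of -0.36 ± 0.13 did not pass (adjusted p = 0.0849, and 0.0719 against the naive FACS arrays alone). It passed as lower with the replicate number as a block (adjusted p = 0.0178), with a block for *Eif2s3y* signal (0.0488) and without replicate 1 of the TGFhi FACS (0.0496) or of the TGFhi MACS arrays (0.0338). Its other probes were dim. 1 of them was under background on the 4 naive arrays (6.02 to 6.15) and at 6.21 to 6.31 in TGFhi Treg cells, above background on 3 arrays, and the other 2 differed by -0.02 and 0.09. The TGFhi Treg cells were sorted for GFP, and the study found FOXP3-positive cells under these conditions by flow cytometry. Whether the probes used here follow the *Foxp3* transcript was not tested. *Ikzf2*, which encodes Helios, lay between 6.12 and 6.61 in naive and 6.11 and 6.27 in TGFhi Treg cells, and *Itgae*, the integrin chain CD103, between 6.07 and 6.44 and between 6.08 and 6.98. Neither passed the test (adjusted p = 0.430 and 0.768). Of the 30 measured genes of the Treg signature, 16 rose (53.3%, against 12.8% of all genes), 2 fell and 12 did not pass. The median was 0.65, and against the naive FACS arrays alone 15 were higher, 0 lower and the median 0.75. Some genes of the lists were not analysed here.

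**Figure D3:**
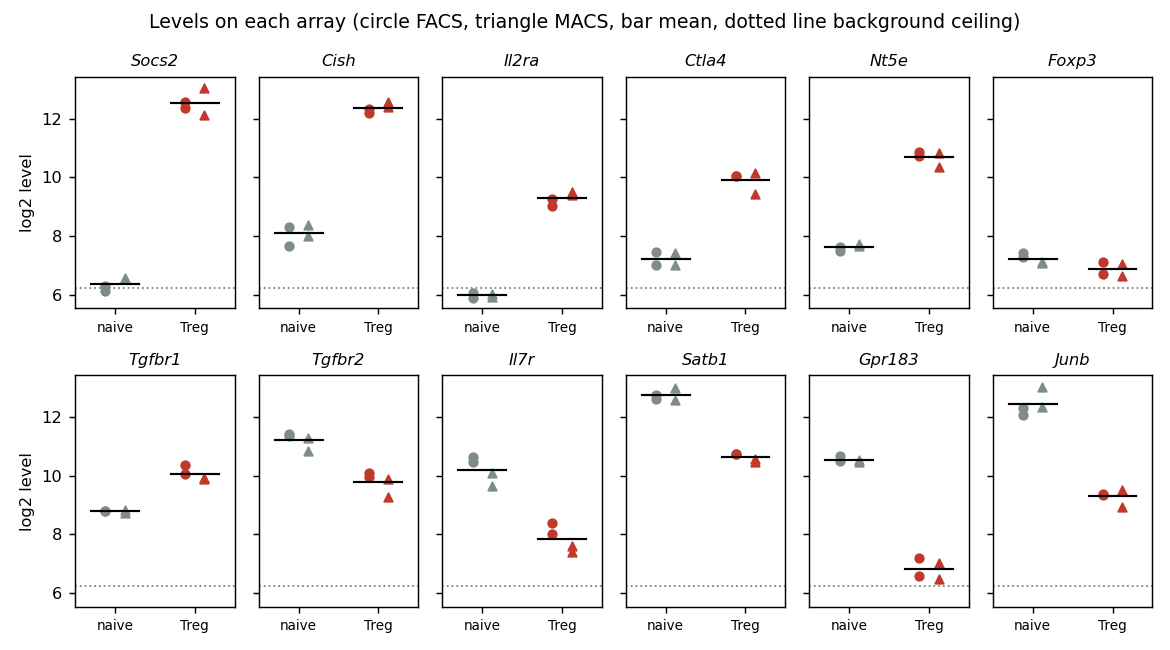
Log2 level of 12 genes on each array, naive in grey and TGFhi Treg in red, with FACS arrays as circles, MACS arrays as triangles, the group mean as a bar and the background ceiling as a dotted line. The groups are apart for every gene but *Foxp3*, where naive arrays lie between 7.09 and 7.42 and TGFhi Treg arrays between 6.62 and 7.10.

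The genes of TGF-beta reception moved in opposite directions. *Tgfbr1*, the kinase that phosphorylates SMAD proteins, rose from 8.81, 8.80, 8.83 and 8.74 to 10.05, 10.35, 9.91 and 9.88. The naive arrays were nearly alike and all TGFhi Treg arrays were above them (1.25 ± 0.16, 2.38-fold, adjusted p = 0.00024). *Tgfbr2*, the receptor that binds the ligand, fell from 11.35, 11.44, 11.30 and 10.86 to 9.96, 10.09, 9.88 and 9.27, also without overlap (-1.44 ± 0.19, adjusted p = 0.000312). The co-receptor *Tgfbr3* fell by 1.68 on the log2 scale (SE 0.11), and *Id2*, an inhibitor of DNA binding that TGF-beta can repress, by 1.54 (SE 0.35). *Skil*, which encodes the SMAD inhibitor SnoN, was at 8.82 to 9.22 in naive and 8.45 to 9.15 in TGFhi Treg cells (adjusted p = 0.518), and the inhibitory SMAD *Smad7* was under background in both. Of the 29 measured genes of TGF-beta reception and response, 4 rose and 7 fell (13.8% and 24.1%, beside 12.8% and 13.2% of all genes), with a median of -0.02. Among those that fell was *Tgfbi*, an extracellular matrix protein also found in monocytes. It was at 7.95 and 9.88 on the naive MACS arrays against 6.18 and 7.12 on the naive FACS arrays, and did not pass against the latter (-0.73, adjusted p = 0.339).

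Genes of cell division formed the list with the highest median. *Top2a*, the topoisomerase that untangles chromosomes, was at 6.42, 6.48, 6.67 and 6.69 in naive and at 10.38, 9.96, 10.06 and 9.87 in TGFhi Treg cells. The naive levels were just above background and all below the TGFhi Treg levels (3.50 ± 0.13, 11.3-fold, adjusted p = 8.75e-08). Increases of the same order were those of *Cdca3*, which promotes entry into mitosis (3.69 ± 0.12), the mitotic kinase *Pbk* (3.68 ± 0.09), and *Cdca8* and *Birc5* (3.62 ± 0.08 and 3.62 ± 0.18), which encode subunits of the chromosomal passenger complex. In all, 34 of 39 measured mitosis genes rose (87.2%, against 12.8% of all genes), 0 fell, and the median was 2.30. Against the naive FACS arrays alone 34 rose, with a median of 2.39.

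The genes that copy DNA rose too. Of 41 measured DNA replication genes 39 rose (95.1%), 0 fell and the median was 1.16, and against the naive FACS arrays alone 36 rose with a median of 1.19. *Uhrf1*, which recruits the maintenance methyltransferase to new DNA, rose by 3.18 ± 0.26, the thymidine kinase *Tk1* by 3.12 ± 0.10, the replication factor *Mcm10* by 2.95 ± 0.08 and the thymidylate synthase *Tyms* by 2.54 ± 0.19. Among 35 genes of cell cycle control 19 rose and 4 fell (54.3% and 11.4%, beside 12.8% and 13.2% of all genes). *E2f2* and *E2f1*, transcription factors of S phase, rose by 2.14 ± 0.21 and 1.97 ± 0.12, and *Cdkn1a*, the inhibitor p21, was at 5.89 to 6.43 in naive and 8.68 to 8.90 in TGFhi Treg cells (2.62 ± 0.27). *Ccnd1*, which encodes cyclin D1, was at 7.09 and 7.26 on the naive FACS arrays, at 9.002 and 9.22 on the naive MACS arrays and under background in TGFhi Treg cells. It was at least 3.78-fold lower over all arrays and at least 1.94-fold lower in the FACS arrays.

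The 250 bases before the start of *Top2a* are shown as the promoter of a mitosis gene that holds several copies of each motif described for such promoters, CCAAT and TTTGAA, the latter known as the cell cycle homology region. They lie at chr11:99024190-99024439 (minus strand, RefSeq on GRCm38.p6), with the 6 CCAAT and the 2 TTTGAA matches of either strand in capitals.
Top2a: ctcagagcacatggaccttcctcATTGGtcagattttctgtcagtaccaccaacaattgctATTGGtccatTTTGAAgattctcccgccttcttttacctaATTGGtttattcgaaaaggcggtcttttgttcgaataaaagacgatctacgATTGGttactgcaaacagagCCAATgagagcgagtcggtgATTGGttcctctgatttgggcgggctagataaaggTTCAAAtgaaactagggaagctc
On either strand, CCAAT was found in 29 of the 37 promoter windows of the mitosis list (78.4%) and in 37.4% of the windows of genes tested, and at least 2 copies in 48.6% and 12.9%. TTTGAA was found in 27 of the 37 (73%) and in 14% of those of genes tested. The shares over all windows were 37.4% and 17.9%, and these differences were not tested.

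Glycolysis and hypoxia genes had the next highest median, 1.31 over 31 measured genes, of which 23 rose (74.2%) and 1 fell. *Pgk1*, the phosphoglycerate kinase of glycolysis, was at 8.35, 8.65, 8.01 and 8.54 in naive and at 11.24, 11.45, 11.36 and 11.53 in TGFhi Treg cells. All TGFhi Treg arrays were above all naive arrays by more than 2 log2 units (3.01 ± 0.12, 8.04-fold, adjusted p = 1.87e-07). The triosephosphate isomerase *Tpi1* rose by 3.53 ± 0.21. The aldolase *Aldoc* and the prolyl hydroxylase *Egln3*, itself a target of hypoxia-inducible factor, were under background in naive cells, with increases of at least 7.37-fold for *Aldoc* and at least 7.87-fold for *Egln3*. Against the naive FACS arrays alone 21 of the 31 rose, 0 fell and the median was 1.25.

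The *Pgk1* promoter is shown because it holds a pair of copies of ACGTG, the core of the element bound by hypoxia-inducible factor. The 250 bases before the start lie at chrX:106186850-106187099 (plus strand, RefSeq on GRCm38.p6), with the matches of either strand in capitals.
Pgk1: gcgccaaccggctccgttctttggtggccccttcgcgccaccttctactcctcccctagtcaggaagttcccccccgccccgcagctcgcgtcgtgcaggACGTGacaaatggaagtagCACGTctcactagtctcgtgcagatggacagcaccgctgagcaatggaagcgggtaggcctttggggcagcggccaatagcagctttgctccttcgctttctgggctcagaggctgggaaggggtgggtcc
ACGTG was found on either strand in 24 of the 40 promoter windows of the list (60%), in 22.7% of the windows of genes tested and in 19.6% of all windows. At least 2 copies were found in 27.5% and in 10.1% of the first 2 sets, and neither difference was tested.

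Other metabolic lists rose by less. Of 29 genes of cholesterol and fatty acid synthesis 21 rose (72.4%) and 0 fell, with a median of 0.70 (17 and 0 against the naive FACS arrays alone). The cholesterol carrier *Stard4* rose by 2.14 ± 0.13, the farnesyl diphosphate synthase *Fdps* by 1.91 ± 0.19 and the fatty acid desaturases *Scd1* and *Fads1* by 1.87 ± 0.19 and 1.83 ± 0.10. Of 65 genes of oxidative phosphorylation 33 rose (50.8%) and 1 fell, with a smaller median of 0.37. Against the naive FACS arrays alone 24 of these rose and 0 fell, with a median of 0.31. With arrays scaled to a common median 44 rose, so this count depended on the arrays and the scaling. The largest of these increases was that of *Ndufv3*, a subunit of complex I, with 1.38 ± 0.11. The gene that fell, the complex III subunit *Uqcrq*, did not pass against the naive FACS arrays alone (-1.26, adjusted p = 0.0656). Among 57 genes of mitochondrial ribosomal proteins 18 rose and 8 fell (31.6% and 14.0%), with *Mrpl14* at 1.26 ± 0.10. Against the naive FACS arrays alone 13 of the 57 rose and 8 fell. *Tfrc*, the transferrin receptor that brings in iron, rose from 7.77, 7.68, 8.11 and 8.42 to 11.07, 11.13, 10.96 and 11.31. Its groups were clearly apart (3.12 ± 0.11, 8.71-fold, adjusted p = 6.6e-08).

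Few genes of cytosolic ribosomal proteins and of ribosome biogenesis rose. Of 52 genes of cytosolic ribosomal proteins, 4 rose and 5 fell (7.69% and 9.62%, below the 12.8% and 13.2% of all genes), with a median of -0.06, and the direction of the split turned with the scaling (6 higher and 2 lower with arrays scaled to a common median, 4 and 14 with the deposited log2 values). *Rpl13a* rose by 1.04 ± 0.12 and *Rpl30* fell by 0.49 (SE 0.09). Of 33 genes of ribosome biogenesis 3 rose and 9 fell (9.09% and 27.3%), with a median of -0.19. The decreases were led by *Rrp12*, a factor of ribosomal subunit maturation, which was at 8.71 to 8.89 in naive and 7.25 to 7.85 in TGFhi Treg cells (-1.35 ± 0.13), and by *Pprc1*, a coactivator of mitochondrial biogenesis (-1.26 ± 0.14). *Myc*, which drives ribosome biogenesis, was at 5.996 to 6.42 in naive and 6.34 to 6.46 in TGFhi Treg cells (0.19 ± 0.07, adjusted p = 0.0672). It passed as higher in the MACS arrays alone (0.0362), with arrays scaled to a common median (0.0409) and with the replicate block (0.0450).

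**Figure D4:**
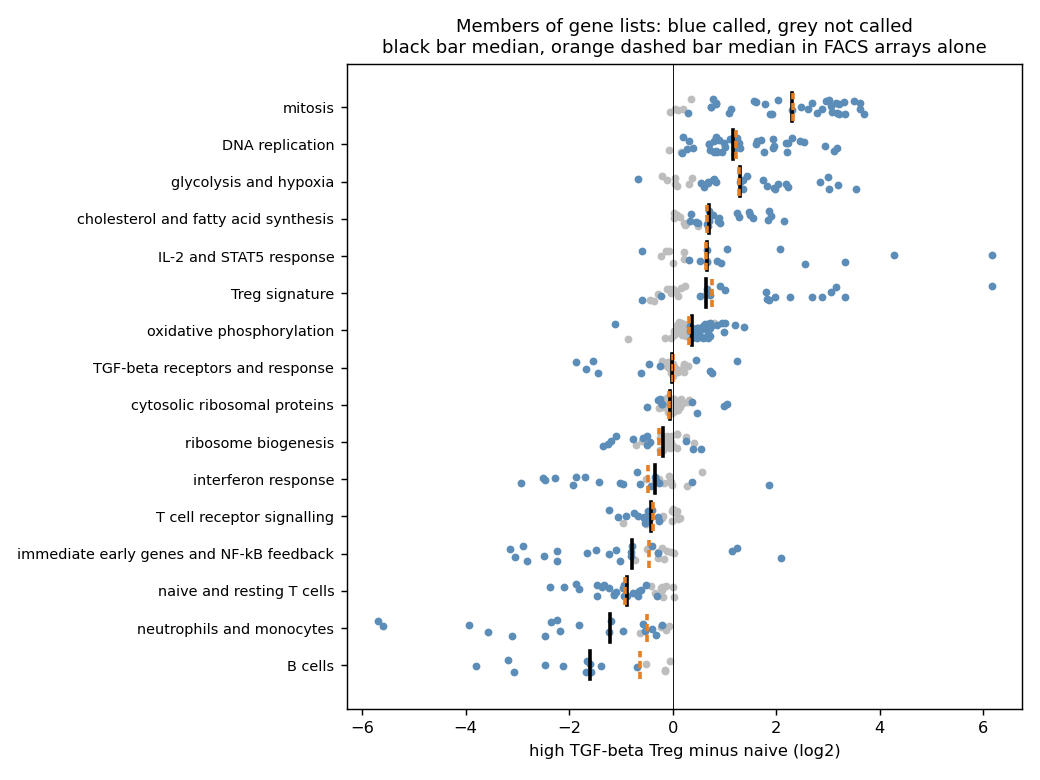
Log2 difference of TGFhi Treg minus naive cells for each measured member of 16 gene lists, 1 point per gene, called genes in blue and uncalled ones in grey, with the list median as a black bar and the median in the FACS arrays alone as an orange dashed bar. The medians run from 2.30 for mitosis to -1.60 for B cell markers, and the lowest 2 lists hold markers of other cells, whose median in the FACS arrays alone was much nearer to 0 (-0.62 for B cells).

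Some of the largest increases belong to no list of T cell biology. *Mt1*, a metallothionein that binds zinc and copper, was at 7.28, 7.61, 8.05 and 9.02 in naive and at 12.84, 13.44, 12.97 and 12.97 in TGFhi Treg cells. The naive levels spread over more than 1 log2 unit, and the naive MACS arrays were the higher ones (5.06 ± 0.22, 33.4-fold, adjusted p = 2.2e-07, and 5.61 against the naive FACS arrays alone). The organic anion transporter *Slco4a1* rose by 4.77 ± 0.16 and the prion protein gene *Prnp* by 4.58 ± 0.15. *Nrn1*, which encodes the small membrane-anchored protein neuritin, went from 6.69, 6.82, 6.67 and 6.53 to 11.20, 11.14, 11.26 and 10.63. Its 4 naive arrays differed by less than 0.3 (4.38 ± 0.13, 20.8-fold). *AA467197* rose by 4.55 ± 0.48, the actin-bundling protein gene *Espn* by 3.84 ± 0.27, *Emp1*, an epithelial membrane protein, by 3.64 ± 0.25, and *Mgarp*, a mitochondrial protein induced by hypoxia, by 3.54 ± 0.18. *Igfbp7*, a secreted binding protein of insulin-like growth factors, was at least 18.1-fold higher, with TGFhi Treg levels of 10.86, 10.31, 9.30 and 11.14, and the ubiquitin ligase subunit *Fbxo2* at least 11.8-fold. All 15 genes with the largest increases and all 15 with the largest decreases by the naming rule passed against the naive FACS arrays alone. The naming rule already required a call in the FACS arrays, so this outcome was nearly fixed in advance and is no further check. The decreases include 2 beta globins of red cells, described with the markers of other cells.

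Galectins and annexins differed in how they depended on the naive arrays. *Lgals1*, the galectin 1 gene, rose by 2.50 ± 0.19, with 2.55 in the FACS and 2.46 in the MACS arrays. *Lgals3* was at 7.08 and 7.91 on the naive FACS arrays but at 8.81 and 10.79 on the naive MACS arrays, against 10.55 to 11.17 in TGFhi Treg cells. The groups overlapped through naive MACS replicate 2, and the difference was 3.65 in the FACS and 0.80 in the MACS arrays. *Anxa2*, a membrane-binding annexin, was at 9.51 and 9.70, then 11.12 and 11.66 in naive and at 12.40 to 12.98 in TGFhi Treg cells, with differences of 3.32 and 1.28. The difference between purifications passed for *Anxa2* (interaction adjusted p = 0.0197), the 1 such gene of its list, and not for *Lgals3* (0.400). Of the 17 measured annexins, S100 proteins and galectins 7 rose and 3 fell (41.2% and 17.6%, beside 12.8% and 13.2% of all genes), with a median of 0.24 that was 0.49 against the naive FACS arrays alone.

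On the other side, genes of the naive and resting state fell. *Satb1*, a chromatin organiser of T cells, was at 12.62, 12.77, 12.59 and 12.99 in naive and at 10.76, 10.73, 10.59 and 10.48 in TGFhi Treg cells. All naive arrays were brighter (-2.10 ± 0.09, adjusted p = 2.71e-07). *Il7r*, the interleukin 7 receptor that keeps naive cells alive, fell from 10.46, 10.64, 10.11 and 9.64 to 8.39, 7.998, 7.62 and 7.39. In both cells the MACS arrays were lower than the FACS arrays, and the difference was nearly the same within each (-2.36 and -2.37, SE of the mean 0.17). *Klf2*, which drives the expression of trafficking receptors, fell by 1.46 on the log2 scale (SE 0.29), *Lef1* by 0.95 (SE 0.19), the glucocorticoid-induced *Tsc22d3* by 1.88 (SE 0.19) and *Slfn1*, a member of the mouse Schlafen family, by 1.81 (SE 0.18). The chemokine receptor *Ccr7*, which guides T cells into lymph nodes, had a difference of 0.01 ± 0.23, with 8.03 to 8.46 in naive and 7.99 to 8.59 in TGFhi Treg cells. Of 31 measured genes of naive and resting T cells 0 rose and 22 fell (71%, against 13.2% of all genes), with a median of -0.88. Against the naive FACS arrays alone 22 fell and the median was -0.98.

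The largest decreases outside the markers of other cells were in *Ifi213*, an interferon-inducible gene of the mouse *Ifi200* family, and *Ppp1r15a*, a subunit that directs a phosphatase to the translation factor eIF2. *Ifi213* was at 10.91, 11.39, 11.02 and 10.95 in naive and at 6.42, 6.34, 6.43 and 6.32 in TGFhi Treg cells. The TGFhi Treg levels were barely above background (-4.69 ± 0.11, 25.8-fold, adjusted p = 9.07e-09). *Ppp1r15a* fell from 12.04, 12.13, 12.09 and 12.68 to 7.19, 7.65, 8.03 and 7.43, a fall of 4.66 on the log2 scale (SE 0.27). *Ly6c1*, a surface protein of mouse lymphocytes, fell by 4.14 (SE 0.23). *Gpr183*, the oxysterol receptor that positions lymphocytes in follicles, was at 10.47 to 10.66 in naive and 6.46 to 7.20 in TGFhi Treg cells (-3.73 ± 0.15). Others were *Pdlim4* (-3.61), the endosomal sorting subunit *Vps37b* (-3.40), the cullin adaptor *Klhl3* (-3.23), *Sidt1* (-3.06) and *Nsg2* (-2.95), with SEs of 0.07 to 0.19. The monocarboxylate transporter *Slc16a5* and the ubiquitin ligase *Dtx1*, a component of Notch signalling, ended under background, which gave decreases of at least 7.69-fold for *Slc16a5* and at least 7.46-fold for *Dtx1*.

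Immediate early genes, which answer a stimulus within minutes and then decline, were bright in the naive cells. *Junb*, a subunit of the AP-1 factor, was at 12.30, 12.06, 12.35 and 13.03 in naive and at 9.35, 9.38, 9.52 and 8.92 in TGFhi Treg cells. The naive arrays were higher by about 3 log2 units (-3.14 ± 0.23, adjusted p = 6.67e-06). *Dusp1*, a phosphatase that switches off MAP kinases, fell by 3.04 on the log2 scale (SE 0.19), *Fos* by 2.90 (SE 0.43) and *Egr3* by 2.81 (SE 0.10). Of the 29 measured genes of this list, 17 fell (58.6%), 3 rose and 9 did not pass. The median of -0.78 was -0.48 against the naive FACS arrays alone, where 14 fell and 3 rose. The exceptions that rose were *Ier3* (2.09), *Dusp4* (1.25) and *Rgs1* (1.15), the first 2 named after their values were seen.

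The interferon response fell in part. *Irf1*, a transcription factor of interferon signalling, was at 12.35, 12.58, 12.16 and 12.71 in naive and 10.27, 9.92, 10.09 and 9.68 in TGFhi Treg cells. The groups did not overlap (-2.46 ± 0.15, adjusted p = 1.9e-06). *Usp18*, which removes the ubiquitin-like protein ISG15, fell by 2.93 on the log2 scale (SE 0.36), *Ifit3* by 2.51 (SE 0.10) and *Isg15* itself by 2.26 (SE 0.34). Among the 30 measured genes 16 fell (53.3%), 2 rose and 12 did not pass, with a median of -0.34 (14 and 2, median -0.49, against the naive FACS arrays alone). The T cell receptor signalling list had 13 of 28 genes lower (46.4%) and 0 higher, with a median of -0.42. Of all genes 13.2% were lower, and of genes above background 20.8%. *Dgka*, a diacylglycerol kinase that restrains signalling, fell by 1.23 (SE 0.11), *Rasgrp1*, an activator of Ras, by 0.90 (SE 0.10) and *Nfatc1* by 0.74 (SE 0.15). The number lower in this list was 8 of 28 against the naive FACS arrays alone. With arrays scaled to a common median it was 5 of 28, with a median of -0.24, so the count depended on the scaling.

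Among the receptors and factors of T cell fate, called Th17 and Th2 genes went both ways, while the called Th1 genes and genes of follicular helper cells were all lower. Of all genes, 12.8% rose and 13.2% fell. *Ccr6*, a chemokine receptor of Th17 and Treg cells, was at 6.28, 6.15, 7.24 and 6.69 in naive and at 10.02, 9.47, 9.30 and 9.89 in TGFhi Treg cells. It had the largest increase among the Th17 genes (3.08 ± 0.39, adjusted p = 0.000239), of which 4 of 11 rose (36.4%) and 1 fell (9.09%), the latter the interleukin 6 receptor *Il6ra* (-0.62 ± 0.14). *Irf4* rose by 1.81 ± 0.16 and *Rora* by 0.74 ± 0.06. Of the 11 Th17 genes 7 were above background, while *Il17a*, *Il17f*, *Il1r1* and *Ccl20* were under it in both cells. Of the 10 Th2 genes 5 were above it, and *Il4* and *Il5* were among those that were not. Of 13 Th1 genes 0 rose and 5 fell (38.5%, and 3 against the naive FACS arrays alone), with *Stat4* at -0.68 ± 0.14. The largest decrease among the Th1 genes was that of *Ly6c1* (-4.14), given above. *Tbx21*, which defines Th1 cells, was near background and did not pass against the naive FACS arrays alone (-0.12, adjusted p = 0.612). Of 10 Th2 genes 1 fell (10%) and 2 rose (20%), *Ccr8* and *Ccr4*, both under background in naive cells, and *Gata3*, the defining factor, fell from 8.20, 8.63, 8.02 and 8.26 to 7.37, 7.76, 6.89 and 7.19 (-0.98 ± 0.18). Of 10 genes of follicular helper cells 0 rose and 4 fell (40%, and 3 against the naive FACS arrays alone), among them the inhibitory receptor *Btla* (-0.80 ± 0.16) and the repressor *Bcl6* (-0.65 ± 0.19), which did not pass against the naive FACS arrays alone (-0.52, adjusted p = 0.185). The receptor of interleukin 27, *Il27ra*, fell by 2.28 on the log2 scale (SE 0.13), the adhesion molecule *Icam2* by 1.56 (SE 0.17) and *Gpr18* by 1.38 (SE 0.16).

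The other receptor lists are read against the 12.8% higher and 13.2% lower of all genes, and the 20.2% and 20.8% of genes above background. Of 27 chemokine receptors, homing receptors and integrins 5 rose (18.5%) and 6 fell (22.2%), near the latter shares. Of 25 coinhibitory and costimulatory receptors 7 rose (28%) and 8 fell (32%), and of 19 suppressive effectors and cytokines 6 rose (31.6%) and 5 fell (26.3%). Of 24 cytokine receptors 2 rose (8.33%) and 5 fell (20.8%), and of 21 T cell activation genes 7 rose (33.3%) and 5 fell (23.8%). The medians of these 5 lists lay between -0.04 and 0.13. Against the naive FACS arrays alone, 7 chemokine receptors, homing receptors and integrins rose and 4 fell. The numbers higher and lower were 7 and 6 for coinhibitory and costimulatory receptors and 5 and 2 for suppressive effectors and cytokines. They were 3 and 4 for cytokine receptors and 8 and 3 for T cell activation genes. The activation genes that fell included the chemokine *Ccl4*, which was at 7.64 and 7.90 on the naive FACS arrays, 10.37 and 10.93 on the naive MACS arrays and 6.64 to 6.88 in TGFhi Treg cells. The T cell receptor subunits *Cd3e* and *Cd3g* fell by 0.55 (SE 0.13) and 0.54 (SE 0.14) on the log2 scale and *Trat1*, a receptor-associated adaptor, by 1.78 (SE 0.13). *Cd4* did not pass (-0.50 ± 0.17, adjusted p = 0.0607), but did as lower with genes above background on at least 2 arrays (0.0389) and without replicate 1 of the naive MACS (0.00806) or of the TGFhi MACS arrays (0.0497). Of the 13 measured CD4 T cell identity genes, 5 fell over all arrays and 5 against the naive FACS arrays alone, and scaling to a common median left 1 lower and 1 higher.

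Markers of other blood cells made up the largest decreases. The neutrophil gene *S100a8* was at 9.82, 11.10, 12.31 and 13.23 in naive cells and under background on all TGFhi Treg arrays. The naive arrays differed among themselves by more than 3 log2 units (at least 41.9-fold lower, adjusted p = 3.65e-07). *Lyz1* was at least 42.3-fold lower over all arrays and at least 18.1-fold lower in the FACS arrays. For the alpha globin *Hba-a1* the bound was 45.5-fold over all arrays, and 22.8-fold in the FACS arrays. The beta globins *Hbb-bs* (at least 64.7-fold) and *Hbb-bt* (at least 55.2-fold) were also lower. Since the marker list does not hold them under these names, the naming rule counted them among the 15 largest decreases. *Cd74*, the invariant chain of MHC class II, was at 10.40 and 10.20, then 12.80 and 12.62 in naive and 8.10 to 8.55 in TGFhi Treg cells, which was still above background. Over all arrays, 11 of 15 B cell markers fell with a median of -1.60, 18 of 22 neutrophil and monocyte markers with -1.20, 5 of 7 erythroid and platelet markers with -0.54 and 6 of 10 CD8 T and NK cell markers with -0.35, where 1 rose. Against the naive FACS arrays alone the numbers lower were 7, 10, 2 and 2.

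The difference between TGFhi Treg and naive cells depended on purification for 88 genes (0.562% of those tested) in the interaction of the limma model, 87 of them with a more negative difference in the MACS arrays. All 88 also differed between naive MACS and naive FACS cells. That difference is itself a part of the interaction, from the same naive arrays, so the overlap is largely built in. They made up 7 of the 2012 higher and 76 of the 2065 lower genes. *Slc4a1*, the anion exchanger of red cells, was at 6.58 and 6.36, then 9.59 and 9.90 in naive cells. Its difference was -0.42 in the FACS and -3.58 in the MACS arrays, and it did not pass against the naive FACS arrays alone (adjusted p = 0.0556). Some genes were called in both purifications with opposite signs and were named after their values were seen. These were *Unc93b1*, a trafficking protein of Toll-like receptors (0.97 in FACS and -1.25 in MACS arrays), *Rassf4* (0.63 and -1.17) and *Pik3ap1* (0.64 and -0.63). A further gene, *Atp6v0a1*, was called lower over all arrays (-0.25, adjusted p = 0.0206) and higher against the naive FACS arrays alone (0.28, adjusted p = 0.0399).

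Treg cells made with low TGF-beta plus harmine differed from TGFhi Treg cells in 73 genes (0.466% of those tested), 46 higher and 27 lower in TGFhi Treg cells, and 61 of them were among the genes called against naive cells. TGF-beta dose and harmine cannot be told apart here. *Eif2s3y* was above background on both harmine MACS arrays and on neither harmine FACS array. In the harmine Treg arrays this signal thus went with purification, and in the other sets with replicate number. The replicate differences of the harmine FACS and harmine MACS arrays correlated at -0.62. Relative to the naive level, the 10 genes named for this comparison fell into several patterns. *Bdh2*, a hydroxybutyrate dehydrogenase, was under background in naive cells, at 8.12 to 8.50 in TGFhi Treg cells and at 6.63 to 7.25 in harmine Treg cells. *Ramp1*, which pairs with the calcitonin receptor-like receptor, was at 9.77 to 10.05 in naive, 10.83 to 11.18 in TGFhi Treg and 9.59 to 9.89 in harmine Treg cells, so that harmine Treg cells were near the naive level. *Gpr83* went from 8.40 to 9.14 in naive to 10.25 to 10.91 in TGFhi Treg and 11.48 to 11.90 in harmine Treg cells. *Lpar6*, a receptor for lysophosphatidic acid, was at 9.48 to 9.99, 8.59 to 9.43 and 7.44 to 8.24 in the same order. *Plac8* was at 8.22 and 8.29 on the naive FACS arrays, at 10.54 and 10.57 on the naive MACS arrays, at 5.83 to 6.35 in TGFhi Treg and 7.22 to 8.02 in harmine Treg cells.

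**Figure D5:**
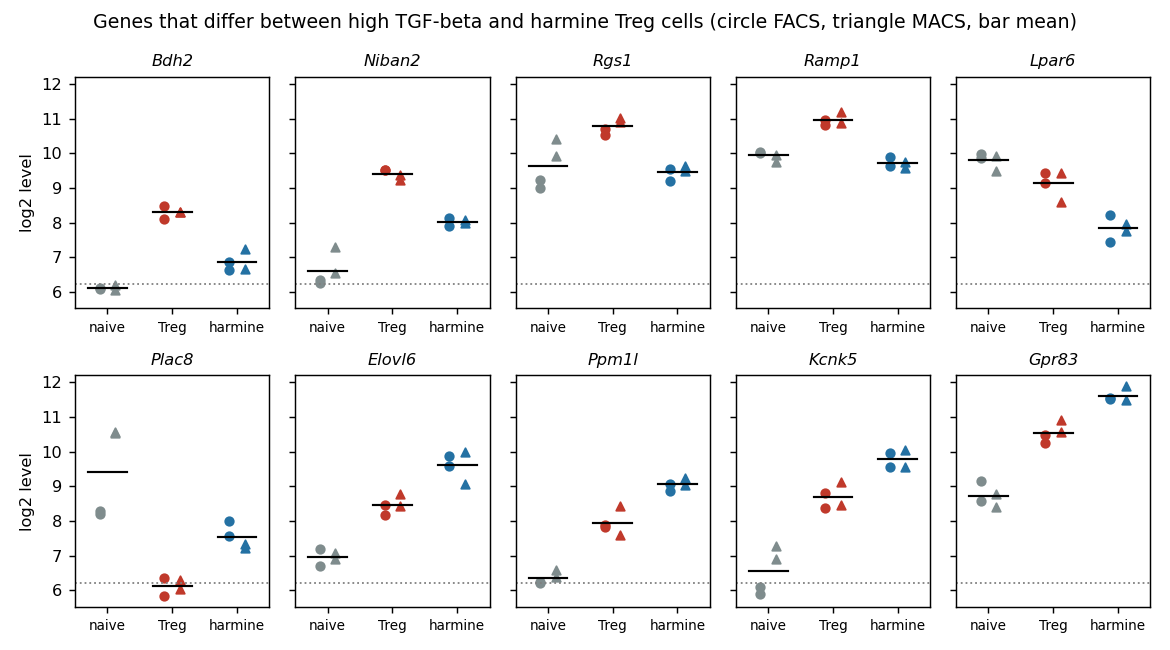
Log2 level of the 10 genes named for the difference between TGFhi and harmine Treg cells on each naive (grey), TGFhi Treg (red) and harmine Treg array, with FACS arrays as circles, MACS arrays as triangles and the group mean as a bar. For *Gpr83* the harmine Treg arrays (11.48 to 11.90) lie above the TGFhi Treg arrays (10.25 to 10.91), which lie above the naive arrays, while for *Ramp1* the TGFhi Treg arrays (10.83 to 11.18) stand above both others.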

How the data were processed

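Total RNA was amplified with biotin and hybridised to Illumina Mouse WG-6 v2 arrays, 1 per sample. GenomeStudio gave the probe signals. The table of intensity that the authors deposited is non-normalized by its name, but its mean was 257 on every array (scaled before deposit), and it holds no background subtraction. A table of log2 values from the authors was made with lumi (background correction, variance-stabilizing transformation, robust spline normalization) and is used here as an alternative only. With each probe centred on its mean over the 12 arrays, an array correlated with its own deposited log2 column at 0.973 or more and with any other at 0.831 or less.

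Intensities were background-corrected with normexp (saddle-point estimate, offset 50), quantile normalized and taken to log2 with limma 3.58.1 in R 4.3.3. Probes above the array median on at least 2 arrays were kept (32081 of 45281). Of all probes 34885 had 1 gene in the platform annotation, 18 several and 10378 none, and the latter kinds were left out. The brightest kept probe stood for a gene, which gave 15663 genes. The background ceiling of an array was its density peak plus 3 SDs. A model with 6 group means was fitted to all 12 arrays (residual degrees of freedom 6, prior 3.43), two-sided, with Benjamini-Hochberg adjustment over all genes. The code was tested on simulated data.

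Named were the 15 largest increases and decreases by the smaller of the FACS and MACS differences, among genes called over all arrays and in the FACS arrays, with 1 sign in both, above background in the brighter group and in no marker list of other cells, a set of T cell genes whatever their result, up to 4 called members of each list, and the 5 largest of each sign for the purification and harmine comparisons. The members and the 42 gene lists (1051 genes, 922 tested) were chosen with earlier results of these data known. Promoter sequences came from RefSeq, build GRCm38.p6. The alternatives are given at the end.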

Additional observations from a re-analysis of the deposited data

Results flagged for a closer look

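For 88 genes the difference between TGFhi Treg and naive cells was not the same in the FACS as in the MACS arrays, by the test of that difference (interaction term of the limma model). The values that follow are the FACS difference minus the MACS difference on the log2 scale. The largest were those of the red cell anion exchanger *Slc4a1* with 3.16 (adjusted p = 0.000124), *Fcer1g*, a signalling chain of Fc receptors, with 3.07 (0.00896), the chemokine *Ccl4* with 3.002 (0.00283), the neutrophil antimicrobial peptide *Camp* with 2.88 (0.00506) and the iron exporter *Slc40a1* of macrophages and red cell precursors with 2.85 (9.6e-05). The naive MACS arrays were the brighter ones for these 5 genes, for example 9.70 and 9.99 against 6.98 and 7.03 for *Slc40a1*, while the TGFhi Treg arrays lay near or under background for all but *Ccl4*. The gene with the opposite sign was *Nop9*, a factor of ribosome maturation, with -0.81 (adjusted p = 0.0487). It was at 6.84 and 6.67 on the naive FACS arrays, at 6.25 and 6.10 on the naive MACS arrays and at 6.54 to 6.82 in TGFhi Treg cells.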

How the results depend on the processing

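The count of 4077 genes was 2593 among the arrays without *Eif2s3y* signal (fewer arrays) and 980 where a change over 2-fold was required. It was 3185 against the naive FACS arrays alone and 4162 with the replicate number as a replicate block (the labels give no shared animal or batch for a number, and the replicate differences of the 4 sets of naive and TGFhi Treg arrays correlated at -0.11 to 0.42, though *Eif2s3y* was above background on replicate 2 alone in each). The methods' t-test gave 4909 at their nominal threshold and 3198 after Benjamini-Hochberg. With arrays scaled to a common median it was 3915, of which 59.2% were higher, against 49.4% of the 4077. Without each array in turn it was 3288 to 4123. The count of the FACS arrays alone was 1631 to 2794, 1631 to 1682 without any one naive or TGFhi Treg FACS array. The 88 interactions were 36 to 213, with 213 without replicate 1 of naive MACS. The 73 differences from harmine Treg cells were 45 with the deposited log2 values, 35 with the mean of a gene's probes, 39 with the replicate block and 9 to 140 without each array, with 140 without replicate 2 of harmine FACS.

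Of the 182 called named genes 139 kept call and sign in every setting. Against the naive FACS arrays alone 15 kept their sign but did not pass. Beside these, *Nop9* did not pass there and had a turned sign (-0.0531). Of the 10 uncalled named genes 5 passed in some setting, *Foxp3*, *Cd4* and *Myc* as given above, *S1pr1* as lower with the replicate block (-0.22, adjusted p = 0.0459), the block for *Eif2s3y* signal (0.0253) and without replicate 1 of naive MACS (0.0373), and *Eif2s3y* with the block for its own signal (0.0459). *Ccr7* turned with the deposited log2 values (-0.00855), against the naive FACS arrays (-0.0421) and without some arrays (-0.14 to 0.16), *Itgae* in the MACS arrays (-0.19) and without 1 array (range -0.10 to 0.32), *Ikzf2* against the naive FACS arrays (0.0397) and *Smad7* without 1 array (range -0.11 to 0.0036). The causes were not tested. The 107 other probes of called named genes that were above background on all arrays of a group had the same sign as the probe used. Probes that stayed dim in both cells were not counted. Among these were the other probes of *Socs2* (0.11) and *Slco4a1* (0.0025), under background on all naive and TGFhi Treg arrays. The other probes of *Igfbp7* (-0.14 to 0.03) were removed by the filter on dim probes. The increase of each of these genes hence rests on 1 probe. Background limits the 617 folds given as bounds.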

Other observations

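Genes of survival and death moved both ways. Shares of a list are to be set beside the 12.8% of all genes that rose and the 13.2% that fell (20.2% and 20.8% of genes above background). Of 21 measured genes of the BCL2 family and death receptors 6 rose and 4 fell (28.6% and 19.0%). *Bcl2l2*, which encodes the survival protein BCL-W, was at 6.15, 6.40, 6.43 and 6.51 in naive and 8.14, 8.17, 8.22 and 8.15 in TGFhi Treg cells (1.80 ± 0.08, limma adjusted p = 3.83e-07), while *Bcl2a1b* and *Bid* fell by 1.12 (SE 0.09) and 1.08 (SE 0.13) on the log2 scale. Of 7 GIMAP GTPases, which support lymphocyte survival, 0 rose and 3 fell (42.9%), *Gimap6* by 1.37 (SE 0.18). Among 10 Krüppel-like factors 5 fell (50%), as *Klf6* by 1.10 (SE 0.18), and 1 rose (10%), *Klf9* by 1.16 ± 0.12. Of 9 DNA methylation and TET genes 2 rose (22.2%) and 1 fell (11.1%), among them the maintenance methyltransferase *Dnmt1* (1.25 ± 0.16) and *Tet1*, which fell by 0.68 (SE 0.12). Against the naive FACS arrays alone, the numbers higher and lower were 6 and 3 for the BCL2 family and death receptors and 0 and 2 for GIMAP GTPases. They were 1 and 3 for Krüppel-like factors and 2 and 2 for DNA methylation and TET genes.

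Of 20 genes of the amino acid response and transport 4 rose and 3 fell (20% and 15%), near the shares of genes above background (20.2% and 20.8%), with 12.8% and 13.2% of all genes. *Nupr1*, a stress-induced chromatin protein, rose from 6.05, 6.05, 6.35 and 6.78 to 8.50, 8.60, 8.92 and 8.83, *Ddit4*, an inhibitor of mTOR signalling, rose by 1.72 ± 0.13 and *Trib3* by 1.67 ± 0.29, while *Atf4*, the transcription factor of this response, fell by 1.62 (SE 0.25). Of 24 genes of nucleotide and one-carbon synthesis 7 rose and 2 fell (29.2% and 8.33%), with the serine synthesis enzymes *Psat1* and *Phgdh* at 1.48 ± 0.14 and 1.08 ± 0.14. Of 19 aminoacyl-tRNA synthetases 5 rose (26.3%), and 2 did so against the naive FACS arrays alone. *Gars* and *Kars* were among those that did not pass there. Of 27 chaperones 3 rose (11.1%), among them *Tcp1* (0.91 ± 0.15). Among 34 proteasome genes 14 rose and 4 fell (41.2% and 11.8%). *Psmb10*, a subunit of the immunoproteasome, fell by 1.43 (SE 0.10) and the constitutive *Psmb2* and *Psmb5* rose by 0.93 ± 0.07 and 0.80 ± 0.16. Of 19 metallothionein, zinc and iron genes 3 rose and 6 fell (15.8% and 31.6%), among the latter the zinc exporter *Slc30a1*, at least 1.39-fold lower. Against the naive FACS arrays alone, 3 of these 19 rose and 4 fell, and 11 proteasome genes rose and 3 fell. The numbers higher and lower were 3 and 3 for the amino acid response and transport, 6 and 1 for nucleotide and one-carbon synthesis and 3 and 0 for chaperones.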
